A study of Mus musculus with 6 samples.

Results

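The genes of MHC class I antigen presentation were examined in mouse epithelioid hemangioendothelioma (EHE), a cancer of endothelial cells, and in liver. The 10 genes were chosen by symbol among the 55401 genes of the count table: H2-K1, H2-D1, B2m, Tap1, Tap2, Tapbp, Psmb8, Psmb9, Nlrc5 and Erap1. The rule of choice used symbols and no measured value, although earlier results of these data were known when the genes were chosen. All 10 passed the filter on low counts that left 17387 genes for testing. The series holds RNA sequencing of polyadenylated RNA from 3 EHE tumours of the peritoneal surface and 3 livers, all of the C57BL6 strain. The series title calls the tumours those of a genetically engineered mouse model. The sources used here do not give the engineered alleles, their driver, the ages of the mice, any treatment or the genotype of the mice that gave the livers. Nothing in the labels ties the samples to separate animals, and p-values therefore reflect only the spread among the 6 libraries, which could be technical. Tumour and liver differ in tissue as well as in disease, and these differences cannot be told apart.

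MHC class I molecules show peptides from inside the cell to CD8+ T cells and to receptors of natural killer cells. Proteasomes cut proteins into peptides, and interferon exchanges their catalytic subunits for the inducible subunits of the immunoproteasome. The TAP transporter moves the peptides into the endoplasmic reticulum, where ERAP1 trims them and tapasin helps to load them onto a heavy chain paired with beta-2-microglobulin. NLRC5 is the transactivator that, with RFX and other factors bound at the promoter, drives transcription of many of these genes. In liver, hepatocytes carry class I molecules at a low level at rest, while endothelial and immune cells carry more.

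The total counts were between 38068941 and 40277346 in tumours and between 33881392 and 39600125 in livers. The tissue labels were checked with lists of 10 hepatocyte and 10 vascular endothelial markers, summed as CPM (counts adjusted for library size, here by the TMM method). The hepatocyte sum was 7.98 to 15.9 CPM in tumours and 168354 to 246435 CPM in livers, and the endothelial sum was 2405 to 4261 CPM in tumours and 220 to 284 CPM in livers. Skeletal muscle markers were also present in tumours, at 1508, 11545 and 2730 CPM in tumours 1 to 3 and at most 1.91 CPM in a liver. Liver 2 had counts for 33274 genes, against 19001 and 19767 in the other livers. In bulk tissue, fewer cells of a type and less RNA per cell cannot be told apart, which touches every level below.

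Of the 10 genes, 7 lie on chromosome 17 within 1351601 bases (GRCm38, the assembly of mm10, with GENCODE mouse release 21). In order they are Tapbp (ENSMUSG00000024308, chr17:33915899-33929292, plus strand), H2-K1 (ENSMUSG00000061232, chr17:33996017-34000347, minus strand), Psmb9 (ENSMUSG00000096727, chr17:34181987-34187764, minus strand), Tap1 (ENSMUSG00000037321, chr17:34187553-34197225, plus strand), Psmb8 (ENSMUSG00000024338, chr17:34197721-34201454, plus strand), Tap2 (ENSMUSG00000024339, chr17:34203527-34216321, plus strand) and H2-D1 (ENSMUSG00000073411, chr17:35262730-35267499, plus strand). Psmb9, Tap1, Psmb8 and Tap2 fill 34335 bases, and the bodies of Psmb9 and Tap1 overlap by 212 bases on opposite strands. The other members are B2m (ENSMUSG00000060802, chr2:122147686-122153083, plus strand), Nlrc5 (ENSMUSG00000074151, chr8:94434356-94527272, plus strand) and Erap1 (ENSMUSG00000021583, chr13:74639568-74693201, plus strand).

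Promoter sequences from RefSeq (GRCm38.p6, 250 bases before to 50 after the start) matched 8 of the 10 genes. The promoters of the 2 classical heavy chains and of B2m are shown with that of H2-Q10, a liver-expressed class I gene described with the values, because H2-K1 and B2m were called lower in tumours, H2-D1 was not, and H2-Q10 was near absent from tumours. All are read 5′ to 3′ on the strand of the gene. Capitals mark the NF-kB motif GGGATTCCC, the interferon regulatory factor motif AANNGAAA, the CRE half-site TGACG and the CCAAT box CCAAT, each searched on both strands.
H2-K1, chr17:34000284-34000583, minus strand: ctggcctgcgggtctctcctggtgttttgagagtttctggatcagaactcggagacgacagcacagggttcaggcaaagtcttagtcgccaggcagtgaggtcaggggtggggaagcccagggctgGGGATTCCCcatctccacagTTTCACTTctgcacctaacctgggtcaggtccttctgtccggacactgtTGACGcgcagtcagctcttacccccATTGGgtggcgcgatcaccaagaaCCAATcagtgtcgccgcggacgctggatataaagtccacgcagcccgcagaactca
H2-D1, chr17:35262844-35263143, plus strand: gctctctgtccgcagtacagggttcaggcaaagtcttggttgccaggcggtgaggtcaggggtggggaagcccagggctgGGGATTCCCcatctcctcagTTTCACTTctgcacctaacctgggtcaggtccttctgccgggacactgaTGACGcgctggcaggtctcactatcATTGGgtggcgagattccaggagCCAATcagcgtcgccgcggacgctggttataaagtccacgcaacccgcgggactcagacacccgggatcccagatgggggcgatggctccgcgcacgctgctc
B2m, chr2:122147437-122147736, plus strand: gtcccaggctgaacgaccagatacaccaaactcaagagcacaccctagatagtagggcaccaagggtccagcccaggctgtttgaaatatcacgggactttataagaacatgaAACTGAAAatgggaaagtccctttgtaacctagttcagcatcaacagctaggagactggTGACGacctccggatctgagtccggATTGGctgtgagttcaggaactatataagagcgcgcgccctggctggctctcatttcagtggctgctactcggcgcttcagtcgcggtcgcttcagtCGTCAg
H2-Q10, chr17:35469839-35470138, plus strand: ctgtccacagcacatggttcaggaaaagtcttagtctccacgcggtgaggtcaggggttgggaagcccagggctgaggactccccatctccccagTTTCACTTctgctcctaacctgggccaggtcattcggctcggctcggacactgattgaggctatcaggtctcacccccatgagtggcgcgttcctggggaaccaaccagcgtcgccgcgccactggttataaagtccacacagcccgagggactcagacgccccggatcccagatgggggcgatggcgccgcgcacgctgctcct
The NF-kB motif stands in the H2-K1 and H2-D1 promoters and in 116 of all 32851 promoters (0.353%), which belong to 112 genes, H2-Q6 and H2-Q7 among them. A TGACG within 40 bases of a CCAAT box stands in the promoters of H2-K1, H2-D1 and B2m and in 3.47% of all promoters. Of the 8 matched members, 5 hold TGACG (20.8% of all promoters), 6 hold CCAAT (37.4%) and 4 hold AANNGAAA (23.9%). The H2-Q10 window holds AANNGAAA and none of the other 3 motifs, although it is identical to that of H2-D1 at 87.3% and to that of H2-K1 at 84.5% of aligned bases. H2-K1 and H2-D1 are identical at 87.7%. The promoter windows of Tap1 and Psmb9 share 275 bases. Their TGACG and their CCAAT lie in that shared stretch and are the same sites read on opposite strands. Each site was counted for both genes in the 5 and the 6 above. A match describes letters and not binding.

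With TMM scaling, which assumes that most genes do not differ, 3 of the 10 genes were lower in tumours (B2m, Erap1 and H2-K1), 0 were higher and 7 did not pass. Over all 17387 genes, 28.7% were lower and 29.5% were higher in tumours by the same rule, so 3 of 10 is near the background. The rule is an adjusted p under 0.05 in the quasi-likelihood test of edgeR. At an unadjusted p under 0.05, 4 members were lower and 0 higher, and the share of all genes by that rule was not counted. DESeq2 and limma-voom each called 4 members lower and 0 higher. Of all 17387 genes, DESeq2 called 5309 lower and 5557 higher, and limma-voom called 5101 lower and 4715 higher. The TMM-scaled levels of 4 members (H2-K1, B2m, Psmb9 and Erap1) were below those of all livers in all tumours, where 33.1% of all genes showed that pattern and 35.1% the opposite, which 0 members showed. The median log2 fold change, tumour over liver, was -0.49 for the members and 0.10 for all genes tested.

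These directions depend on how the libraries are scaled, as the plot of fold changes under 4 scalings shows. With library totals alone, the median of all genes moved by 1.28 on the log2 scale, 61.5% of all genes were higher in tumours and 12.5% lower, and 2 members (Tap2 and Tapbp) were higher and 0 lower. At an unadjusted p under 0.05 the counts with library totals were 3 higher and 0 lower, again without a count of all genes by that rule. With the libraries scaled by the 14 genes of the constitutive 20S proteasome, Tap2 and Tapbp were again the members called higher and 0 were lower (57% and 12.4% of all genes). The same 2 members were higher and 0 lower by limma on log2(FPKM + 1), with 63.1% and 14.9% of all genes. Relative to the median of all genes, the median of the members was lower by 0.59 with TMM and by 0.58 with library totals. All 10 members lay below the median of all genes with both scalings, from 0.28 (Tap2) to 2.04 (B2m) below it with TMM. Without a filter on low values this position changed: 4 of the 10 lay below the median of all genes, both with edgeR and TMM and with log2(FPKM + 1), and the median of the members was then above that of all genes by 0.12 and 0.29. Statements of higher and lower in the following paragraphs refer to TMM-scaled values unless another scale is named.

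**Figure D1:**
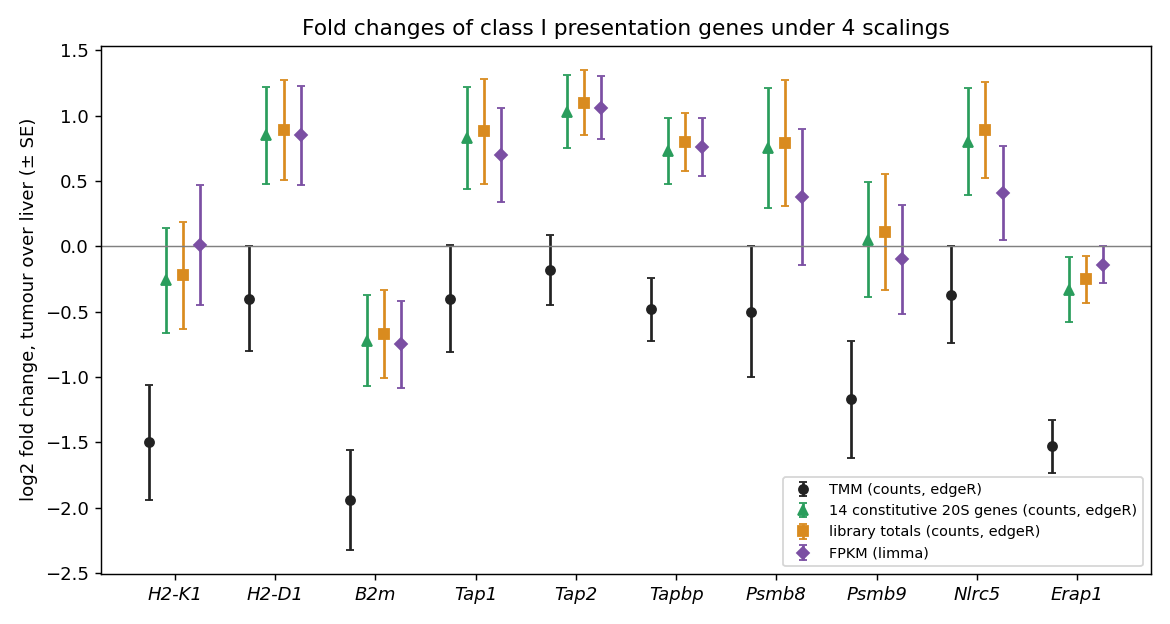
Log2 fold change of each gene, tumour over liver (y axis, points with standard error), with TMM scaling, scaling by 14 constitutive 20S proteasome genes, library totals and deposited FPKM values. B2m and Erap1 lie below 0 under all 4 scalings, and Tap2 lies at -0.18 with TMM and at 1.10 with library totals.

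The heavy chains and their light chain came first in level. B2m, the light chain of every class I molecule, stood at 992, 1319 and 673 CPM in tumours 1 to 3 and at 4546, 3259 and 3664 CPM in livers 1 to 3. All tumours lay below all livers. Its log2 fold change, tumour over liver, was -1.94 (SE 0.38, adjusted p = 0.0039 by edgeR), a level 3.84 times as high in livers. B2m was also the only member with all tumours below all livers by library totals and by FPKM. Its adjusted p ranged from 3.83e-09 to 0.123 over the alternatives, and it did not pass with library totals (log2 fold change -0.67, SE 0.34, adjusted p = 0.116).

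H2-K1, a classical heavy chain, stood at 630, 1123 and 405 CPM in tumours 1 to 3 and at 2498, 1582 and 2009 CPM in livers 1 to 3. The groups did not overlap, and tumour 2 came nearest to the livers. For H2-K1 the log2 fold change was -1.50 (SE 0.44, adjusted p = 0.0229 by edgeR; 0.000127 to 0.989 over the alternatives). The call was lost without tumour 1, tumour 3, liver 1 or liver 3, at adjusted p of 0.0728, 0.0511, 0.0845 and 0.0629. By FPKM the groups overlapped, with 1155, 1980 and 624 in tumours and 953, 970 and 1518 in livers.

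H2-D1, the other classical heavy chain of this strain, stood at 758, 1250 and 546 CPM in tumours and at 1398, 762 and 1204 CPM in livers. The groups overlapped, since tumour 2 exceeded livers 2 and 3. The log2 fold change of -0.40 (SE 0.40) did not pass, at an adjusted p of 0.431 by edgeR. With library totals the value was 0.89 (SE 0.38, adjusted p = 0.0703), and all tumours lay above all livers, the lowest tumour at 885 CPM and the highest liver at 883 CPM. On that scale 4 members (H2-D1, Tap2, Tapbp and Nlrc5) had all tumours above all livers and 1 (B2m) had all below, against 66.5% and 14% of all genes.

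The balance between these genes can be read within each library, where scaling cancels. The ratio of H2-K1 to H2-D1 counts was 0.832, 0.898 and 0.742 in tumours and 1.79, 2.08 and 1.67 in livers. H2-D1 had more counts than H2-K1 in all tumours and fewer in all livers. The mean log2 ratio differed by -1.16, with a two-sided exact permutation p of 0.1, the smallest that 3 against 3 libraries allow (0.35 after adjustment over 7 ratios). By FPKM, H2-K1 exceeded H2-D1 in every library, with ratios of 2.16, 2.37 and 1.56 in tumours and 2.32, 4.62 and 4.31 in livers. These ratios overlapped between the groups. FPKM divides by transcript length, and the annotated exons of all transcripts together cover 2938 bases for H2-K1 and 2579 bases for H2-D1. Why counts and FPKM differed in this order was not tested. The ratio of B2m to the sum of the heavy chains was 0.715, 0.556 and 0.708 in tumours and 1.17, 1.39 and 1.14 in livers, again with no overlap, also by FPKM (difference -0.91 on the log2 scale, exact permutation p = 0.1, adjusted 0.35). Windows of 50 bases found also in another annotated gene made up 9.63% of H2-K1 and 12.8% of H2-D1 transcript windows. The gene sharing most with H2-K1 was H2-Q10 (179 of 333 windows), and that sharing most with H2-D1 was H2-Q1 (152 of 331). The sources used here do not give how such reads were counted, so reads of these paralogs may be split between them, while B2m had 0 shared windows.

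**Figure D2:**
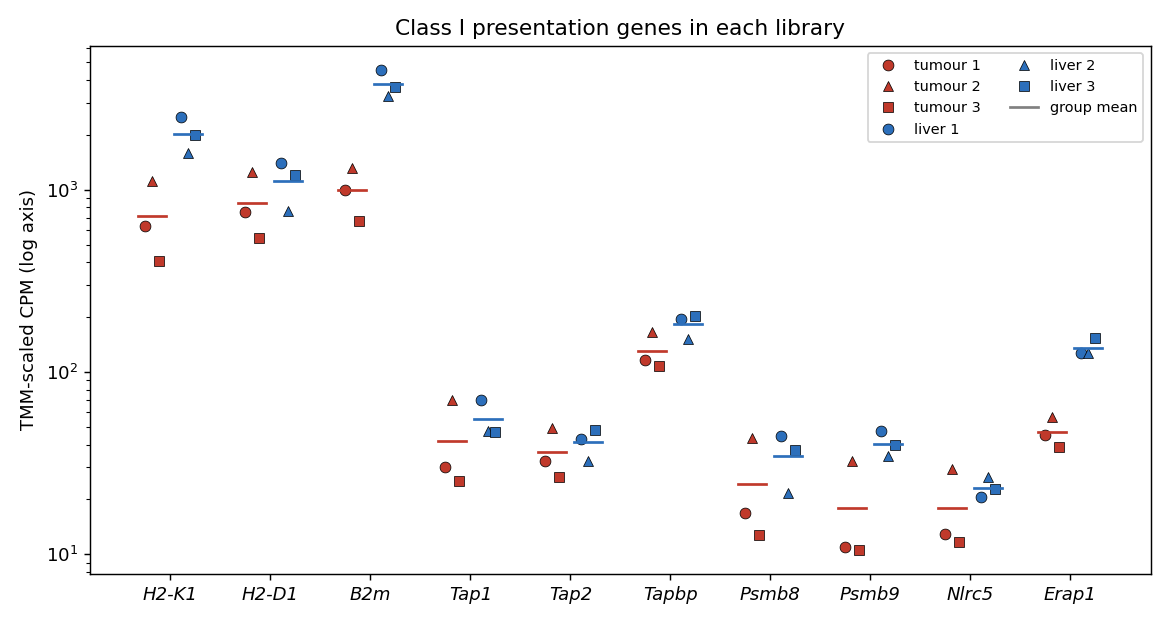
TMM-scaled CPM (y axis, log scale) of the 10 genes in each of the 3 tumours and 3 livers, with bars at the group means. B2m, H2-K1, Psmb9 and Erap1 separate the groups, and tumour 2 is the highest tumour for every gene.

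The inducible proteasome subunits supply peptides with ends that suit class I binding. Psmb9, which replaces Psmb6 in the immunoproteasome, stood at 11, 32.3 and 10.6 CPM in tumours and at 47.2, 34.5 and 39.7 CPM in livers. The groups did not overlap, although tumour 2 came close to liver 2. The log2 fold change of -1.17 (SE 0.45) missed the threshold, at an adjusted p of 0.0593 by edgeR (0.000167 to 0.923 over the alternatives). It passed with DESeq2, with limma-voom, with no filter on low counts and without tumour 2. Psmb8, which replaces Psmb5, stood at 16.9, 43.7 and 12.7 CPM in tumours and at 44.8, 21.6 and 37.2 CPM in livers. Its groups overlapped, and the log2 fold change of -0.50 (SE 0.50) did not pass, at an adjusted p of 0.421.

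Set against their constitutive counterparts within each library, the inducible subunits had ratios that overlapped between the groups. The ratio of Psmb8 to Psmb5 counts was 0.564, 1.57 and 0.544 in tumours and 0.518, 0.419 and 0.584 in livers (exact permutation p = 0.3, adjusted 0.525). The ratio of Psmb9 to Psmb6 was 0.185, 0.565 and 0.216 in tumours and 0.230, 0.278 and 0.275 in livers (exact permutation p = 1). Tumours 1 and 3 lay within the range of the livers for Psmb8 to Psmb5 and below it for Psmb9 to Psmb6, and tumour 2 lay above every other library for both. The ratio of Psmb10 to Psmb7, the remaining inducible pair, was 0.606, 1.36 and 0.589 in tumours and 0.923, 0.751 and 1.01 in livers (exact permutation p = 0.8, adjusted 0.933). Without tumour 2 the log2 ratio of Psmb9 to Psmb6 turned from 0.12 higher in tumours to -0.38.

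**Figure D3:**
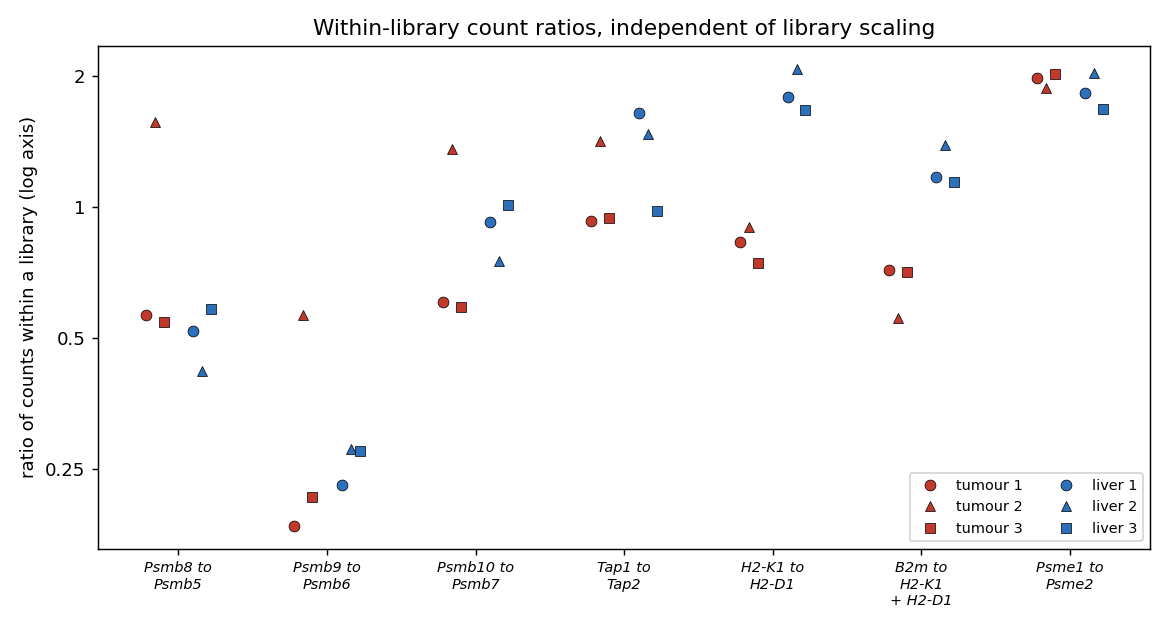
Ratios of counts of paired genes within each library (y axis, log scale), which do not depend on scaling between libraries. H2-K1 to H2-D1 and B2m to their sum separate tumours from livers, and tumour 2 stands above the other tumours for the 3 ratios of inducible to constitutive proteasome subunits, at 1.57 for Psmb8 to Psmb5.

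Tap1 and Tap2 form the peptide transporter. Tap1 stood at 30.0, 70.3 and 25.1 CPM in tumours and at 70.6, 47.6 and 47.1 CPM in livers, and Tap2 at 32.3, 49.6 and 26.7 CPM in tumours and 42.9, 32.3 and 48.0 CPM in livers. The groups overlapped for both genes, with tumour 2 above livers 2 and 3 for Tap1 and above every liver for Tap2. The log2 fold changes of -0.40 for Tap1 (SE 0.41, adjusted p = 0.434 by edgeR) and -0.18 for Tap2 (SE 0.27, adjusted p = 0.594) did not pass. With library totals Tap2 was higher in tumours, with a log2 fold change of 1.10 (SE 0.25, adjusted p = 0.00632; 0.00508 to 0.993 over the alternatives). The ratio of Tap1 to Tap2 counts was 0.930, 1.42 and 0.942 in tumours and 1.65, 1.47 and 0.981 in livers, with overlap (exact permutation p = 0.2, adjusted 0.467).

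Tapbp encodes tapasin, which bridges the transporter and the heavy chain. Its levels were 117, 166 and 108 CPM in tumours and 195, 151 and 202 CPM in livers. The groups overlapped only through tumour 2 and liver 2. The log2 fold change was -0.48 (SE 0.24, adjusted p = 0.121 by edgeR) with TMM and 0.80 (SE 0.22, adjusted p = 0.0133; 0.00865 to 0.314 over the alternatives) with library totals. Tapbp shares 149 exon bases with Zbtb22 on the same strand, which had 1315 to 2351 counts in tumours and 584 to 975 in livers, beside 6756 to 9738 and 3486 to 4893 for Tapbp.

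Erap1 encodes the aminopeptidase that trims peptides in the endoplasmic reticulum. It stood at 45.4, 56.8 and 38.8 CPM in tumours and at 127, 127 and 153 CPM in livers. All tumours lay far below all livers, and the spread within each group was the smallest of the 10 genes. For Erap1 the log2 fold change was -1.53 (SE 0.20, adjusted p = 0.00067 by edgeR; 1.1e-10 to 0.481 over the alternatives). With library totals it was -0.25 (SE 0.18, adjusted p = 0.249). Erap1 shares 834 exon bases with Cast on the opposite strand, which had 7048 to 12138 counts in tumours and 1355 to 1575 in livers. The sources used here do not give whether counting used strand, so reads of the shared stretch cannot be assigned to either gene.

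Nlrc5, the transactivator, was the least abundant per length. It stood at 12.9, 29.2 and 11.7 CPM in tumours and at 20.5, 26.5 and 22.7 CPM in livers. Tumours 1 and 3 lay below every liver and tumour 2 above every liver. Its log2 fold change of -0.37 (SE 0.37) did not pass, at an adjusted p of 0.415 by edgeR (0.00608 to 0.785 over the alternatives). When scaled by library totals, the 10 genes summed to 4017, 6371 and 3014 CPM in tumours and 5679, 4120 and 4549 CPM in livers. The groups thus overlapped in the share of counts these genes took. Most of the sum came from B2m, H2-K1 and H2-D1 (1506, 957 and 1150.5 CPM in tumour 1). On this scale B2m had all tumours below all livers and H2-D1 had all above.

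Levels per transcript length can be ordered by the deposited FPKM values (mean ± SD, n = 3). For H2-K1 and H2-D1 in tumours, counts gave the opposite order. In tumours the order was B2m (1861 ± 540), H2-K1 (1253 ± 683), H2-D1 (589 ± 222), Tapbp (80.5 ± 15.8), Psmb8 (63.1 ± 41.8), Tap2 (30.1 ± 7.98), Psmb9 (20.2 ± 14), Tap1 (18.7 ± 9.63), Erap1 (15.5 ± 0.548) and Nlrc5 (5.52 ± 3.27). Among neighbours in that order, the ranges separated H2-D1 from Tapbp and Erap1 from Nlrc5, and all others overlapped. In livers the order was B2m (3068 ± 582), H2-K1 (1147 ± 322), H2-D1 (324 ± 103), Tapbp (47.2 ± 8.35), Psmb8 (44.9 ± 18.5), Psmb9 (19.1 ± 2.89), Erap1 (17.2 ± 1.81), Tap2 (13.7 ± 2.70), Tap1 (10.6 ± 3.14) and Nlrc5 (3.61 ± 1.06). The liver ranges separated B2m from H2-K1, H2-K1 from H2-D1, H2-D1 from Tapbp, Psmb8 from Psmb9 and Tap1 from Nlrc5. Tap2 stood above Psmb9, Tap1 and Erap1 in the tumour means and below Psmb9 and Erap1 in the liver means.

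Among the tumours, all 10 genes were highest in tumour 2 and all 10 were lowest in tumour 3. Of 9445 genes with 10 or more CPM, 35.9% were highest in tumour 2, and of 9585 such genes 28.1% were lowest in tumour 3. Tumour 2 exceeded the next tumour by 1.5 times or more for 7 of the 10 genes, as it did for 13.9% of all genes of that abundance. The step over the next tumour was 2.92 times for Psmb9, 2.59 for Psmb8, 2.34 for Tap1, 2.28 for Nlrc5, 1.78 for H2-K1, 1.65 for H2-D1 and 1.54 for Tap2, and 1.42 for Tapbp, 1.33 for B2m and 1.25 for Erap1. The largest steps thus fell on the inducible proteasome subunits, and the smallest on Erap1. In livers 7 of the 10 genes were lowest in liver 2, as were 42% of all genes of that abundance.

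Markers of other cell types moved with tumour 2. The sum of 10 macrophage markers was 904, 2729 and 646 CPM in tumours 1 to 3 and 380 to 820 CPM in livers, and all 10 were detected in every library. The sum of 8 B cell markers was 43.2, 120 and 28.5 CPM in tumours and 10.4 to 47.7 CPM in livers, that of 8 dendritic cell markers 46.3, 89.4 and 34.2 CPM in tumours and 8.62 to 17.3 CPM in livers, and that of 12 T cell markers 40.2, 74.0 and 42.3 CPM in tumours and 40.5 to 62.8 CPM in livers. Each of these sums was highest in tumour 2 among tumours. Singly, 9 of 10 macrophage, 8 of 8 B cell, 7 of 8 dendritic cell and 11 of 12 T cell markers were highest there. Mertk (macrophage list) and Cd5 (T cell list) were lowest in tumour 2, and Zbtb46 (dendritic cell list) was highest in tumour 3. Zap70, at 32.4 to 42 CPM in livers, made up most of the liver T cell sum, and without it the sum was 38.3, 68.1 and 40.2 CPM in tumours and 7.42 to 20.8 CPM in livers. The sum of 9 NK cell markers was 46.6, 18.9 and 34.2 CPM in tumours 1 to 3 and 7.92 to 13.4 CPM in livers, and it rested on Prf1, at 42.8, 7.08 and 29.7 CPM in tumours. Without Prf1, a choice made after seeing the data as for Zap70, the NK cell sum was 3.83, 11.9 and 4.52 CPM in tumours and 7.26 to 12.7 CPM in livers, again highest in tumour 2 among tumours. The sum of endothelial markers was lowest in tumour 2 (4261, 2405 and 3697 CPM), and that of muscle markers was highest there. Of the endothelial list, Emcn was highest in tumour 2 (8.21, 22.9 and 8.65 CPM) and Kdr was not lowest there (142, 150 and 152 CPM). The other endothelial markers were each lowest in tumour 2. The part of all these markers in the spread of the class I genes was not tested. The 14 constitutive proteasome genes summed to 765, 753 and 748 CPM in tumours 1 to 3, a spread far smaller than that of the inducible subunits.

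**Figure D4:**
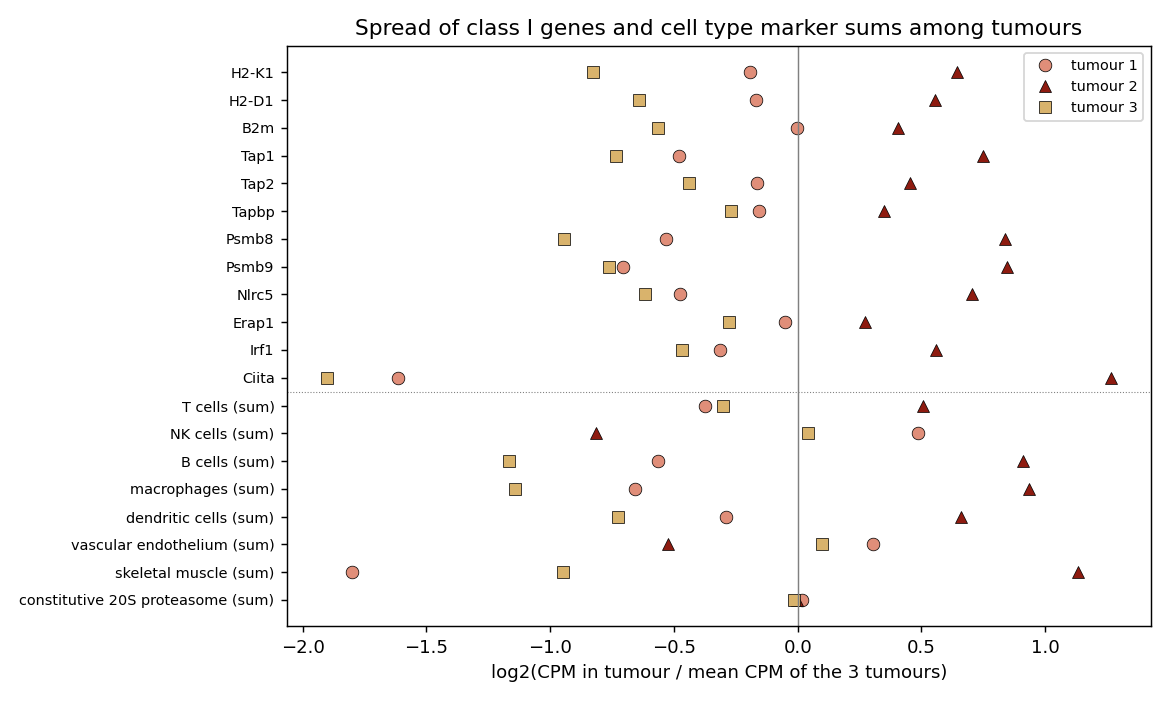
Log2 ratio of each tumour's CPM to the mean of the 3 tumours (x axis) for the 10 genes, 2 regulators and the summed markers of 7 cell types and the constitutive proteasome. Tumour 2 is highest for every class I gene and for the T cell, B cell, macrophage and dendritic cell sums, and lowest for the endothelial sum and for the NK cell sum, which without Prf1 was highest in tumour 2 (3.83, 11.9 and 4.52 CPM in tumours 1 to 3).

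Tumour 2 is singled out here because all 10 genes were highest in it. Leaving it out therefore lowers their tumour means, and the calls and p-values of that fit are descriptions. Leaving tumour 2 out, 8 of the 10 genes were lower in tumours by edgeR with TMM, and 0 were higher. The shares were 28.8% and 28.2% of all genes, which were not selected in this way. The 2 that did not pass were H2-D1 (log2 fold change -0.78, adjusted p = 0.0854) and Tap2 (-0.47, adjusted p = 0.105). Psmb9 then changed by -1.90 (SE 0.20, adjusted p = 0.000211), Psmb8 by -1.21 (SE 0.33, adjusted p = 0.0168) and Tap1 by -0.99 (SE 0.23, adjusted p = 0.00949). Without tumour 2 and liver 2, a choice made after seeing the data, all 10 were lower and 0 higher, against 29% and 32.9% of all genes, with log2 fold changes from -2.29 (B2m) to -0.60 (Tap2). The number of members called with TMM scaling thus turned on tumour 2.

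The other genes of the pathway were described by role in 7 lists of 88 genes, 82 of them tested. In all, 15 were higher and 42 lower in tumours with TMM, and 41 were higher and 8 lower with library totals. Of all genes tested, 29.5% were higher and 28.7% lower with TMM, and 61.5% and 12.5% with library totals. Among these shares, the pathway genes exceeded the background only in the share called lower with TMM. Among 22 other class I and class I-like molecules, 18 were tested, 8 were lower and 2 higher with TMM (6 and 8 with library totals). H2-Q10, which encodes a secreted class I molecule made by the liver, stood at 2.21, 1.02 and 1.59 CPM in tumours and at 3410, 3161 and 3142 CPM in livers. Its log2 fold change was -10.97 (SE 0.53, adjusted p = 1.27e-05 by edgeR), with no overlap on any of the scales of counts. Azgp1, a secreted relative of class I heavy chains, was at 0, 0.102 and 0 CPM in tumours and at 2498, 1892 and 2338 CPM in livers.

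The class I-like genes that were higher in tumours were Procr and H2-M3. Procr, the endothelial protein C receptor, stood at 12.0, 13.4 and 14.4 CPM in tumours and at 2.03, 0.823 and 2.02 CPM in livers (log2 fold change 3.03, SE 0.39, adjusted p = 0.000612 by edgeR). H2-M3, which presents formylated peptides, stood at 14.8, 20.2 and 14.1 CPM in tumours and at 6, 4.07 and 4.78 CPM in livers (1.72, SE 0.26, adjusted p = 0.00118). For both genes all tumours lay above all livers. The list median of -0.57 compares with 0.10 for all genes tested.

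The constitutive 20S proteasome was lower in tumours for 14 of its 14 genes with TMM, but with library totals 3 were higher and 0 lower. Its median log2 fold change was -1.30 with TMM and -0.02 with library totals. Of all genes tested, 28.7% were lower with TMM, and 61.5% were higher and 12.5% lower with library totals. The catalytic subunits Psmb5, Psmb6 and Psmb7 had log2 fold changes of -1.31, -1.52 and -1.53 with TMM. With TMM, 7 of the 10 class I members lay above the median of the 20S genes, and the 3 below it were B2m, Erap1 and H2-K1. Of 6 further genes of the immunoproteasome and proteasome activators all 6 were lower with TMM, but with library totals 1 was higher and 0 lower. Psmb10, the remaining inducible catalytic subunit, was at 19.9, 41.4 and 17.1 CPM in tumours and 97.1, 55.6 and 88.8 CPM in livers (log2 fold change -1.62, SE 0.39, adjusted p = 0.00986 by edgeR). The activator subunits Psme1 and Psme2, which form the PA28 cap, had log2 fold changes of -1.48 and -1.56. Their count ratio was 1.98, 1.88 and 2.02 in tumours and 1.83, 2.03 and 1.68 in livers (exact permutation p = 0.4, adjusted 0.56).

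Among 11 genes of peptide loading and protein folding in the endoplasmic reticulum, 7 were lower and 1 higher with TMM. With library totals 0 were lower and 3 higher. Over all genes tested, 28.7% were lower and 29.5% higher with TMM, and 12.5% and 61.5% with library totals. Bcap31, a cargo receptor of the endoplasmic reticulum, and Sec61b, a subunit of the protein translocation channel, had the most negative log2 fold changes (-1.66, SE 0.20, and -1.46, SE 0.25; adjusted p = 0.000414 and 0.00236). Lnpep, an aminopeptidase used in cross-presentation, was higher in tumours (1.04, SE 0.24, adjusted p = 0.00899). Of 6 cytosolic peptidases, 3 were lower and 1 higher with TMM (2 and 3 with library totals). Lap3 (leucine aminopeptidase) fell by 3.65 and Nln (neurolysin) by 1.94 on the log2 scale, and Npepps, the puromycin-sensitive aminopeptidase, rose by 1.38 (adjusted p = 4.54e-05, 0.000151 and 0.000783 by edgeR). All tumours lay below all livers for Lap3 and Nln, also with library totals.

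**Figure D5:**
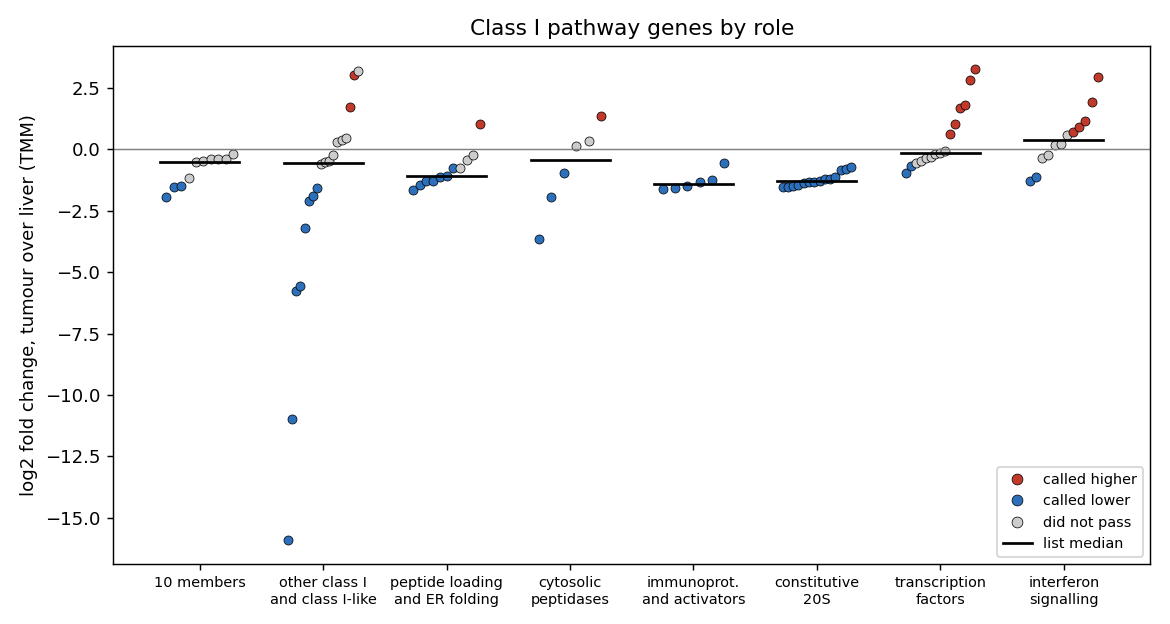
Log2 fold change, tumour over liver with TMM scaling (y axis), of each tested gene of the 10 members and the 7 pathway lists, with a bar at each list's median. Genes called lower prevail in the proteasome and peptide-loading lists (14 of 14 in the constitutive 20S list), and genes called higher outnumber those called lower in the transcription factor list (6 against 2) and the interferon list (5 against 2).

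Of 15 transcription factors of class I genes, 6 were higher and 2 lower with TMM (29.5% and 28.7% of all genes) and 13 and 0 with library totals (61.5% and 12.5% of all genes). Relb, a subunit of NF-kB, stood at 39.1, 44.9 and 31.4 CPM in tumours and at 7.53, 4.20 and 4.45 CPM in livers (log2 fold change 2.83, SE 0.29, adjusted p = 0.000223 by edgeR). Nfyb, which binds the CCAAT box, and Irf2, an interferon regulatory factor, were lower with TMM (-0.94 and -0.68, adjusted p = 0.00412 and 0.00666), but with library totals their values were 0.34 and 0.60. Ciita, the relative of NLRC5 that governs MHC class II genes, was at 8.47, 62.5 and 6.94 CPM in tumours and 3.32, 3.42 and 1.40 CPM in livers (3.26, SE 0.94, adjusted p = 0.0216), and its level in tumour 2 was 7.37 times that of the next tumour. The RFX subunits Rfx5, Rfxap and Rfxank, and also Irf1, did not pass. Irf1, an interferon response factor, stood in tumour 2 at 1.83 times the next tumour.

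Of 14 genes of interferon signalling, 12 were tested, and 5 were higher and 2 lower with TMM (29.5% and 28.7% of all genes). With library totals 10 were higher and 0 lower (61.5% and 12.5% of all genes). Ifng and Ifnb1, which encode interferon ligands, were at or under 0.0866 CPM in every library and were not tested. The feedback inhibitors Socs3 and Socs1 had log2 fold changes of 2.97 (SE 0.71, adjusted p = 0.0101 by edgeR) and 1.95 (SE 0.60, adjusted p = 0.0265). Stat2 and Irf9, which are components of an interferon-activated transcription factor, had -1.27 (SE 0.27, adjusted p = 0.00585) and -1.11 (SE 0.22, adjusted p = 0.00392) with TMM, but 0.0031 and 0.17 with library totals.

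The genes whose profile over the 6 libraries was closest to that of H2-K1 were Ndufs8, Psmb10 and Gm10039, at root-mean-square distances of 0.14, 0.16 and 0.16 in centred log2 CPM, among genes of 10 or more mean CPM. B2m and Psmb9 were the closest members, at 0.25 and 0.26. Naip2 and Ly6a were among the closest to Tap1, both at 0.14, and the closest members were H2-D1 and Psmb8, at 0.24 and 0.25. By this measure H2-K1 and H2-D1, whose promoters are identical at 87.7% of aligned bases, lay 0.59 apart.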

How the data were processed

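Samples were grouped by their titles. The deposited counts are whole numbers per Ensembl gene; the sources used here do not give the counting tool, its annotation, its strand setting or its handling of shared reads. The authors' FPKM values, 1 table per library, were made with HISAT2 2.1.0, mm10 and Cufflinks 2.2.1.3, per the submitters' processing notes. Tissues were frozen, RNA was isolated with a Qiagen kit and libraries were made by the DNBSeq protocol, per the labels' protocols. FPKM values were used for levels per length and as an alternative, tested as log2(deposited FPKM + 1) or + 0.1. FPKM and counts disagreed for the member H2-K1 in livers. Liver 1 had 1578 CPM by library totals and 953 FPKM, and liver 3 had 1231 CPM and 1518 FPKM, the opposite order. For some genes outside the members, FPKM and counts disagreed widely. Alb had an FPKM of 0 in every liver beside 2776173 to 4392222 counts, and Tnnc2 had 222 to 2022 FPKM in tumours beside 2 to 7 counts. Of 55401 genes, 55188 had an FPKM value, and the highest row was kept for 53 repeated identifiers. Members were matched by symbol and joined to counts by gene identifier.

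Counts were fitted with edgeR 4.0.16 in R 4.3.3 (filterByExpr, TMM, robust quasi-likelihood test, no covariates), with Benjamini-Hochberg adjustment over all 17387 genes tested and a call at an adjusted p under 0.05. Standard errors come from the fold change and the root of the F statistic. Even numbers made up 55% to 70.7% of counts from 1 to 10, and reads carry no molecular identifiers, so counting error alone understates the noise. Replicate pairs differed by a chi-square per degree of freedom of 105 or more, so none was counted as 1 sample. Ratios used a two-sided exact permutation test of mean log2 ratios. Alternatives were RLE, library totals, TMM without the 100 most abundant genes, scaling by 14 proteasome genes, 1 CPM in 3 libraries, no filter, limma-voom and limma on FPKM (limma 3.58.1), DESeq2 1.42.0, a replicate block and leaving out each library. The fits were tested on simulated data. Promoter letters are those of RefSeq, and shared windows were counted over annotated transcripts.

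Named genes are the 10 members, the 2 called genes of 1 or more CPM with the largest change in each direction of each of 7 pathway lists, the genes of the 7 ratios, and the 3 genes of 10 or more CPM closest in profile to H2-K1 and to Tap1. Some items that the rule names are not reported here. Other genes were named after their values were seen. The members and lists were chosen with earlier results of these data known, so their counts are descriptions.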

Additional observations from a re-analysis of the deposited data

How the results depend on the processing

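With RLE size factors, TMM without the 100 most abundant genes, 1 CPM in 3 libraries, no filter, DESeq2 and limma-voom, 0 members were higher and 3 or 4 lower. For these settings in turn, all genes lower numbered 4918, 4934, 4733, 4676, 5309 and 5101. All genes higher numbered 5175, 5184, 4796, 5588, 5557 and 4715. The genes tested were 17387, 17387, 14688, 37584, 17387 and 17387. With library totals, 20S scaling, log2(FPKM + 1), log2(FPKM + 0.1) and log2(FPKM + 1) without filter, 2 members were higher and 0 lower. In that order, pathway list genes higher in tumours numbered 41, 36, 34, 34 and 32 (15 with TMM) and lower 8, 8, 8, 8 and 7 (42). All genes higher numbered 10689, 9907, 8613, 8608 and 9370, and lower 2173, 2162, 2031, 2019 and 2152. These came from 17387, 17387, 13640, 13640 and 29207 genes tested, so the counts do not compare as shares. In the same order, log2 fold changes that turned positive were 0.89, 0.85, 0.85, 0.85 and 0.85 for H2-D1, 0.88, 0.83, 0.70, 0.74 and 0.70 for Tap1, 1.10, 1.03, 1.06, 1.11 and 1.06 for Tap2, 0.80, 0.73, 0.76, 0.77 and 0.76 for Tapbp, 0.79, 0.75, 0.38, 0.39 and 0.38 for Psmb8, 0.89, 0.80, 0.41, 0.49 and 0.41 for Nlrc5, 0.34, 0.26, 0.04, 0.04 and 0.04 for Nfyb, 0.60, 0.50, 0.56, 0.58 and 0.56 for Irf2 and 0.17, 0.10, 0.12, 0.12 and 0.12 for Irf9. Psmb9 turned to 0.11 and 0.05 with the first 2 of these, H2-K1 to 0.01 with each FPKM setting, and Stat2 to 0.0031 with library totals and 0.02 with each FPKM setting. The cause was not tested.

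Leaving out each library gave 2 to 8 members lower, log2 ratio differences of -0.38 to 0.43 for Psmb9 to Psmb6 and -0.57 to 0.03 for Psmb10 to Psmb7, which reached 0.01 without tumour 1 and 0.03 without tumour 3, and a Tap2 fold change of -0.47 to 0.0036, the last without tumour 3. A lone pair of tumours or livers was fitted with the pooled spread. Without libraries 2 of both groups, 10 members were lower, and the differences were -0.33 for Psmb9 to Psmb6, -0.69 for Psmb10 to Psmb7 and -0.70 for B2m to the heavy chains. With FPKM in place of counts they were -0.84 for H2-K1 to H2-D1 and 0.33 for Psme1 to Psme2. Same-numbered libraries did not deviate together (correlations 0.019, 0.0373 and -0.0249). A fit with the replicate number as a block gave 0 members higher and 3 lower, 14 and 40 pathway genes, and 4516 and 4574 of all genes. The smallest exact p for 3 against 3 libraries is 0.1, above the threshold. Every member had 499 or more counts in every library.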
